A study of Mus musculus with 124 samples.

Results

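The 9 genes described here mark successive stages of the oligodendrocyte lineage, the glia that make central myelin. Olig1, Olig2, Cspg4 and Sox10 were taken as the precursor genes, and Mbp, Mog, Mag, Mobp and Opalin as the myelin genes. They were selected by symbol from the 24409 genes in the RNA-seq table of the dorsal dentate gyrus (dDG). Earlier results of these data were known when they were chosen, so their calls are not those of a blind choice. The dDG is the dorsal portion of the hippocampal region where granule neurons lie. The tissue came from mouse offspring that were 8 weeks old and had been anaesthetised with tribromoethanol and perfused. The exposed group, hCG, had 6 libraries, and the unexposed group, Ctrl, had 6. hCG is human chorionic gonadotropin, a hormone that triggers ovulation. In the mouse model, estrous females received 7.5 IU intraperitoneally with no PMSG beforehand, whereas control females in estrus were kept with a vasectomised male. The labels do not describe the mothers of the dDG animals separately. The labels name no strain and no genetic change, and they do not say whether the 6 libraries of a group came from 6 animals or litters. The p-values therefore measure only the spread between these libraries, which may be technical.

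Oligodendrocyte precursors persist in the adult brain, where they divide and give rise to new oligodendrocytes. OLIG1 and OLIG2 are basic helix-loop-helix transcription factors that specify the lineage, and SOX10 is a transcription factor that maintains it and switches on myelin genes. CSPG4, also known as NG2, is a proteoglycan on the surface of precursors, and it is found on pericytes as well. Differentiated oligodendrocytes wrap axons in membrane compacted by MBP and MOBP. MAG lies on the membrane facing the axon, MOG on the outermost surface of the sheath, and OPALIN is a transmembrane protein of mature oligodendrocytes.

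The libraries held 15931301 to 17307307 estimated counts in hCG and 14991582 to 17859654 in Ctrl. Between 16018 and 16465 genes were detected in each. Levels are given as CPM, counts scaled to the same total in each library, which are not scaled to transcript length, so they are compared between libraries and not between genes. Of 13874 genes tested with edgeR, 1091 (7.86%) passed an adjusted p of 0.05. Over all genes tested, the median log2 fold change (hCG over Ctrl throughout) was 0.00, and 51.1% were above 0. The correlation of log2 CPM between libraries of the same group ran from 0.965 to 0.988 in hCG and from 0.978 to 0.990 in Ctrl. Library hCG 6 stood apart through choroid plexus, ependymal and meningeal markers. Their sum reached 9642 CPM there, with 39.8 to 148 CPM in the other hCG libraries and 37.1 to 167 CPM in Ctrl. Library hCG 4 had the highest sums of pericyte and smooth muscle markers (382 CPM) and of endothelial markers (278 CPM). All 9 genes of the lineage were detected in every dDG library. In contrast, 3 of 4 Schwann cell markers did not pass the filter on low counts, and the sum of all 4 was 1.51 to 2.37 CPM in hCG and 1.21 to 2.74 CPM in Ctrl.

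Of the 4 precursor genes, Olig1, Olig2 and Cspg4 were higher in hCG dDG, by 1.24 to 1.40 times, and Sox10 did not pass the test. Of the 5 myelin genes, all 5 had log2 fold changes below 0, but only Opalin passed the test, at 0.45 of the Ctrl level. Across all genes tested, 4.67% were called higher and 3.19% lower. The difference in response between the precursor and the myelin genes was not itself tested. In bulk tissue, fewer cells of a type and less RNA per cell cannot be told apart.

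**Figure D1:**
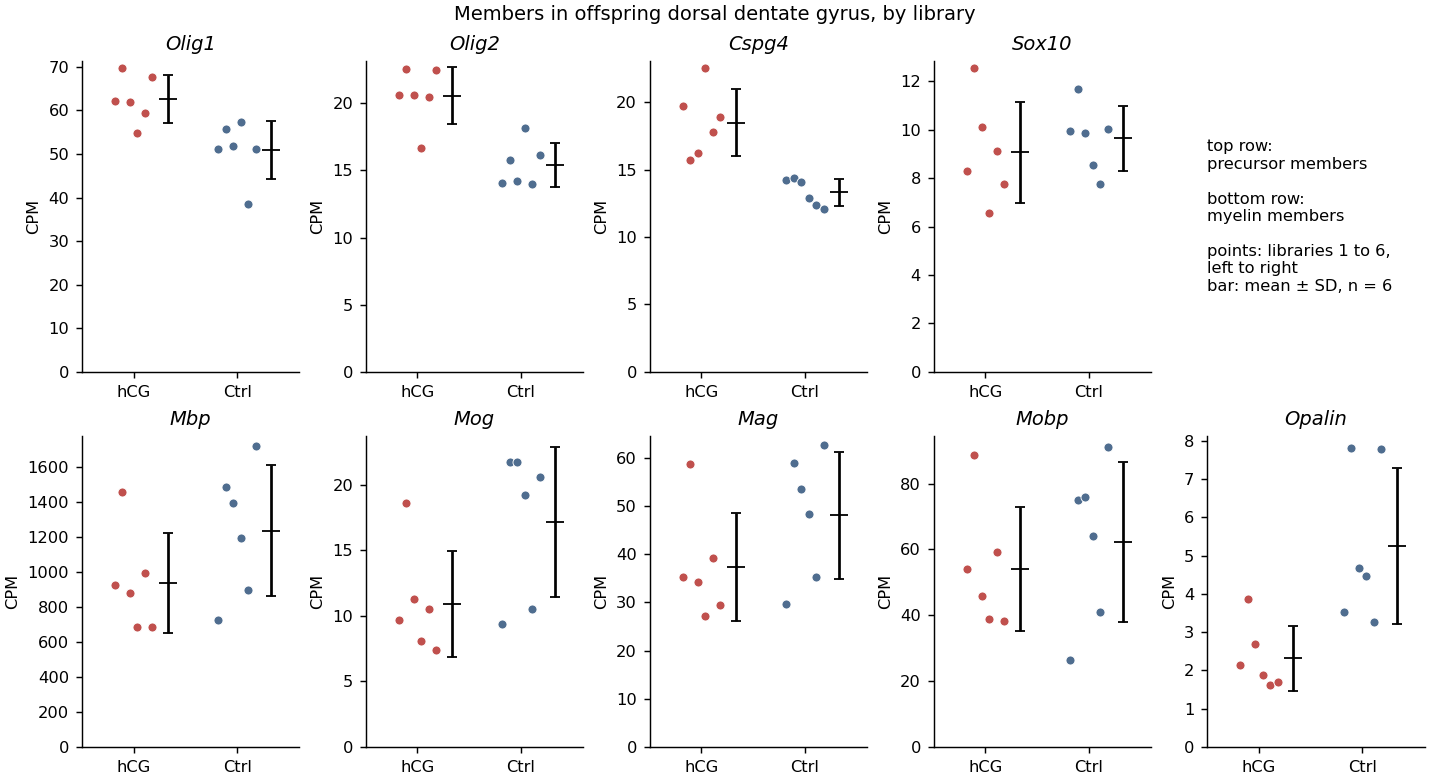
Level of each gene in CPM in the 6 hCG and 6 Ctrl libraries of the dDG, with axes from 0; points are libraries 1 to 6 from left to right, and the bar gives the mean ± SD. The 6 hCG points of Cspg4 (15.7 to 22.5 CPM) lie above all Ctrl points (12.1 to 14.3 CPM), whereas the myelin genes spread widely in both groups.

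The promoters of the 2 precursor genes with the smallest adjusted p are shown because both genes rose. They come from RefSeq on GRCm38.p6 and cover 250 bases before to 50 bases after the annotated start, written along the gene. Olig2 lies at chr16:91225550-91228677 and its window at chr16:91225300-91225599 (plus strand). Cspg4 lies at chr9:56865104-56899870 and its window at chr9:56864854-56865153 (plus strand). Capitals mark matches on either strand to 3 short motifs, the E-box letters CANNTG that helix-loop-helix factors such as OLIG2 bind, and the SOX letters ACAAAG and ACAAT. No matches overlapped.
Olig2: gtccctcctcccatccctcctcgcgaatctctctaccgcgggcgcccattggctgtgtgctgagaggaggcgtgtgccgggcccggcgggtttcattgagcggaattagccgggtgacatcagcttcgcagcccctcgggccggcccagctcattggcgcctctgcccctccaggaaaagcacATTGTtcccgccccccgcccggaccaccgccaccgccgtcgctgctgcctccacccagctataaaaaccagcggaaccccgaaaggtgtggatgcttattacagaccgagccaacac
Cspg4: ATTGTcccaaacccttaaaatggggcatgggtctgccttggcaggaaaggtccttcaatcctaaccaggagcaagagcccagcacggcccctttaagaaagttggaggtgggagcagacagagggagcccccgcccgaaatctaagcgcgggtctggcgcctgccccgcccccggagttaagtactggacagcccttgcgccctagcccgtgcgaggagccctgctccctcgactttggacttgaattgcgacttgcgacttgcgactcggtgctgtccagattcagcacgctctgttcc
Each window held 1 match to ACAAT and none to CANNTG or ACAAAG. Among 32851 RefSeq promoter windows of this length, 31.0% held ACAAT, 72.3% CANNTG and 18.7% ACAAAG. A match is a description of letters and not a binding site.

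Cspg4 measured 15.7 CPM in the lowest hCG library, 18.3 at the median and 22.5 in the highest, against 12.1, 13.5 and 14.3 CPM in Ctrl. All 6 hCG libraries lay above all 6 Ctrl libraries, a separation found in that direction for 2.38% of the genes tested. This gave a log2 fold change of 0.49 ± 0.09 (SE, n = 6 per group), with an adjusted p of 0.00602 in edgeR's quasi-likelihood test. Cspg4 stayed past the threshold under each alternative setting run on genes and without any single library, and its lowest log2 fold change among the fits without 1 library was 0.43, without hCG 4 (adjusted p = 0.0142 in edgeR).

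Library hCG 4, which held the highest Cspg4 value, also held the highest sum of pericyte and smooth muscle markers. Over all genes tested, 7.86% were called in edgeR. Of the 9 pericyte and smooth muscle markers, none passed the test in edgeR, DESeq2 or limma-voom (0 at an unadjusted p of 0.05 in edgeR). None was at 0 in all libraries. Their median log2 fold change was 0.23, and 8 of the 9 lay above 0. Their summed level ranged from 61.1 to 382 CPM in hCG and from 73.5 to 219 CPM in Ctrl. The list's most abundant gene, Vtn, which encodes vitronectin, ranged from 22.5 to 146 CPM in hCG and from 30.4 to 108 CPM in Ctrl. Outside hCG 4, the highest sum in hCG was 232 CPM, still above the highest in Ctrl. Cspg4 was called higher in hCG when hCG 4 was left out, as given above. The part of pericytes in the Cspg4 result was not tested.

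Olig2 measured 16.7 CPM in the lowest hCG library, 20.6 at the median and 22.5 in the highest, against 14.0, 15.02 and 18.2 CPM in Ctrl. Of the 6 hCG libraries, 5 lay above every Ctrl library, and the lowest, hCG 4, fell inside the Ctrl range. Its log2 fold change was 0.43 ± 0.09, with an adjusted p of 0.0114 in edgeR. It passed the test in each of the 12 fits that left out 1 library.

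Olig1 measured 54.7 CPM in the lowest hCG library, 62.0 at the median and 69.7 in the highest, against 38.5, 51.5 and 57.3 CPM in Ctrl. The groups overlapped by 1 hCG library, again hCG 4, and library Ctrl 5 lay well below the other Ctrl libraries. The log2 fold change was 0.31 ± 0.09, with an adjusted p of 0.0362 in edgeR. This call was near the threshold. Leaving out 1 library kept it in 4 of 12 fits, those without hCG 4, Ctrl 2, Ctrl 4 or Ctrl 5, and in the others the adjusted p in edgeR ran from 0.0525 to 0.0723. Without Ctrl 5 the log2 fold change was 0.24 (adjusted p = 0.0417 in edgeR).

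Olig1 and Olig2 are neighbours on chromosome 16. Olig1 lies at chr16:91269769-91271939, and 41091 bases with no other gene in the RefSeq table separate it from Olig2. Their ratio varied little between hCG libraries, at 30.5 to 34.6 Olig2 reads per 100 Olig1 reads, against 27.4 to 36.4 in Ctrl. Both genes were highest in hCG 2 and hCG 6 among the hCG libraries, and highest in Ctrl 4 among the Ctrl libraries.

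Sox10 measured 6.57 CPM in the lowest hCG library, 8.70 at the median and 12.5 in the highest, against 7.77, 9.91 and 11.7 CPM in Ctrl. The hCG range enclosed the Ctrl range, with hCG 2 the highest and hCG 4 the lowest of all 12 libraries. Its log2 fold change was -0.07 ± 0.14 (interval of 2 SE, -0.36 to 0.21), with an adjusted p of 0.796 in edgeR. Relative to Olig2, Sox10 gave 34.5 to 55.6 reads per 100 Olig2 reads in hCG and 47.1 to 73.8 in Ctrl. This pair was set side by side after the values were seen, and the 2 ranges overlapped. For 16.3% of the genes tested, all hCG libraries lay below all Ctrl libraries per Olig2 read, and Sox10 was not among them.

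Other precursor genes were measured beside these 4. Over all genes tested, 7.86% were called in edgeR, so a list of 15 would hold few calls. Of 15 other genes of precursors and committed precursors, none was called higher or lower in edgeR's test. Their median log2 fold change was 0.06. At an unadjusted p of 0.05, 3 were higher and 1 lower, and of the other tools DESeq2 called 1 lower, Lhfpl3, and limma-voom 0. The 2 most abundant were Epn2, which encodes an endocytic adaptor, and Ptprz1, a receptor-type phosphatase of precursors and astrocytes. Epn2 differed by 0.14 ± 0.05 on the log2 scale (adjusted p = 0.125 in edgeR) and Ptprz1 by -0.07 ± 0.05 (adjusted p = 0.441). Another 3 genes were named for their known roles after their values were seen. Pdgfra, the receptor through which PDGF drives precursor division, measured 40.0 to 49.2 CPM in hCG and 35.5 to 51.6 CPM in Ctrl. Its log2 fold change was -0.02 ± 0.08 (interval -0.18 to 0.14). Gpr17, a receptor of committed precursors, differed by 0.06 ± 0.14. Enpp6, a phosphodiesterase of newly forming oligodendrocytes, differed by -0.64 ± 0.33 (adjusted p = 0.247 in edgeR) and stayed below 1.80 CPM in all libraries.

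**Figure D2:**
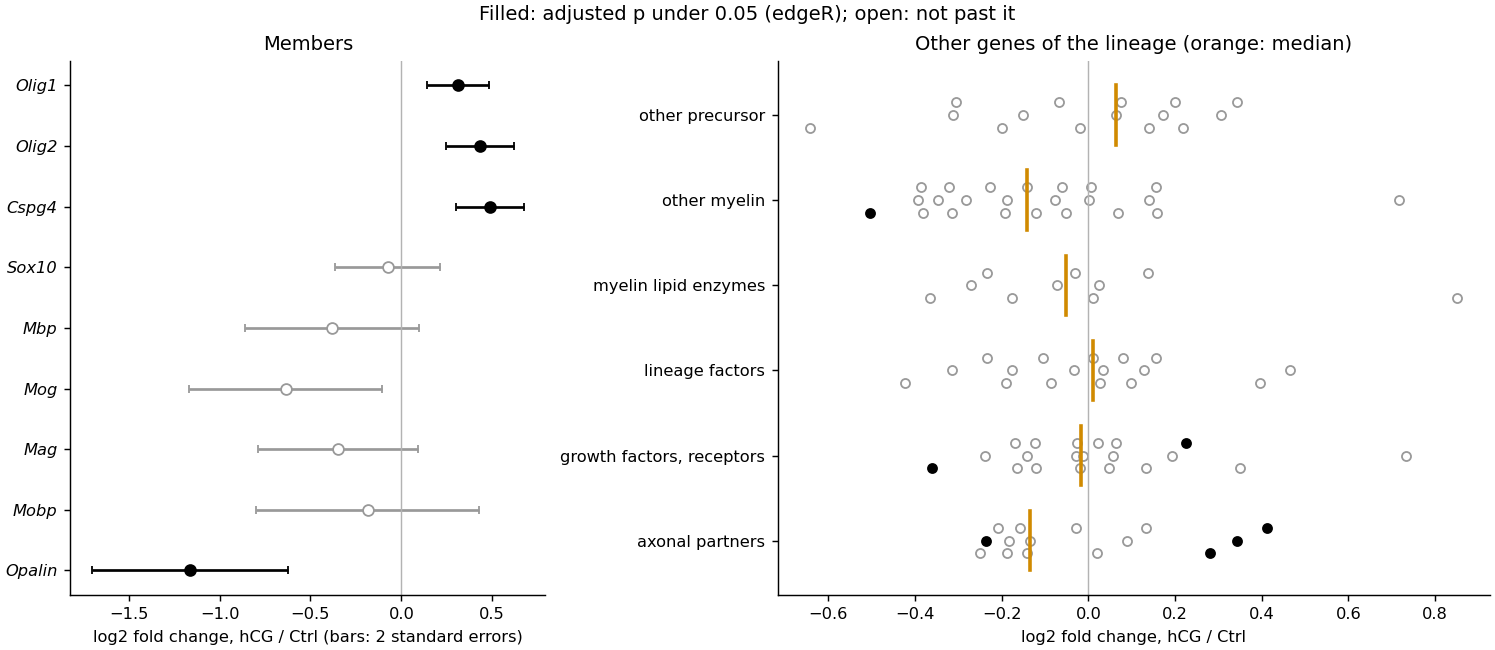
Log2 fold change, hCG over Ctrl, of the 9 genes (left, bars of 2 standard errors) and of the other lineage genes by list (right, each point 1 gene, orange line the list's median); filled points passed an adjusted p of 0.05 in edgeR. Olig1, Olig2 and Cspg4 lie to the right of 0 and Opalin to the left at -1.16, and few points in the lists on the right are filled.

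The myelin gene that passed the test, Opalin, is shown with its promoter, and Mobp, which did not, is shown beside it because of the unusual number of SOX letters in its window. Both windows come from RefSeq on GRCm38.p6. The Opalin gene lies at chr19:41061959-41077113 and its window at chr19:41077064-41077363 (minus strand). The Mobp gene lies at chr9:120149742-120181488 and its window at chr9:120149492-120149791 (plus strand). Capitals again mark the same 3 motifs on either strand, with no overlapping matches.
Opalin: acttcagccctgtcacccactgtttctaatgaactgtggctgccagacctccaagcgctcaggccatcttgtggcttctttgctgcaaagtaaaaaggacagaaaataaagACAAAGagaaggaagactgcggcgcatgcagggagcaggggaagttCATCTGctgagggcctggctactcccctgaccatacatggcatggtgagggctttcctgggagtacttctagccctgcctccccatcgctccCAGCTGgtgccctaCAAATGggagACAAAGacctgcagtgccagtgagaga
Mobp: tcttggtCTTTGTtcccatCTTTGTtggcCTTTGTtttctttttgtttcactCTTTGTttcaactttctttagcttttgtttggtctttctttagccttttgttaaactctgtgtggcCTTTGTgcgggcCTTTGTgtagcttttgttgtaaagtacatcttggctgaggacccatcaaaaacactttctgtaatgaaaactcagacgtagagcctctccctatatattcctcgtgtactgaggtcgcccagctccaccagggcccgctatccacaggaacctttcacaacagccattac
The Opalin window held 3 matches to CANNTG, 2 to ACAAAG and none to ACAAT. The Mobp window held 6 matches to ACAAAG and none to the other motifs. Of the 32851 windows, 11 (0.0335%) held 4 or more matches to ACAAAG. The sequences of 6 of the 9 genes were found in the RefSeq promoter table, those of Cspg4, Olig2, Mag, Mobp, Mog and Opalin. The Mog window held no match to any of the 3 motifs, which says only that these letters are not in it.

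Opalin measured 1.63 CPM in the lowest hCG library, 2.01 at the median and 3.87 in the highest, against 3.27, 4.57 and 7.80 CPM in Ctrl. Of the 6 hCG libraries, 5 lay below every Ctrl library, and only hCG 2 overlapped with them. These levels rested on 28 to 67 counts per hCG library and 53 to 135 counts per Ctrl library. This gave a log2 fold change of -1.16 ± 0.27, with an adjusted p of 0.0172 in edgeR. It remained past the threshold in each of the 12 fits without 1 library, with adjusted p from 0.00826 to 0.0466 in edgeR. Without hCG 4 and hCG 6 together, which stood out in the marker sums given above, it was -1.001 with an adjusted p of 0.0856.

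Mog measured 7.39 CPM in the lowest hCG library, 10.1 at the median and 18.6 in the highest, against 9.35, 19.9 and 21.7 CPM in Ctrl. Each hCG library lay below the Ctrl median, but Ctrl 1 and Ctrl 5 lay within the hCG range. The log2 fold change was -0.64 ± 0.27 (interval -1.17 to -0.11), with an adjusted p of 0.165 in edgeR. Mog passed in 1 of the 12 fits without 1 library, and only just, with adjusted p in edgeR up to 0.284. It passed in 0 of the 6 other settings run on genes. That fit left out hCG 2, the highest hCG library, and gave a log2 fold change of -0.85 with an adjusted p of 0.0497 in edgeR.

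Mbp, which encodes a major protein of compact myelin, measured 684 CPM in the lowest hCG library, 900 at the median and 1456 in the highest, against 723, 1291 and 1720 CPM in Ctrl. The groups overlapped over most of their range. The log2 fold change was -0.38 ± 0.24 (interval -0.86 to 0.10), with an adjusted p of 0.363 in edgeR.

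Mag measured 27.2 CPM in the lowest hCG library, 34.7 at the median and 58.6 in the highest, against 29.6, 50.9 and 62.7 CPM in Ctrl. Library hCG 2 was level with the highest Ctrl libraries, and Ctrl 1 with the lowest hCG libraries. For Mag the log2 fold change was -0.35 ± 0.22 (interval -0.79 to 0.09), with an adjusted p of 0.362 in edgeR.

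Mobp measured 38.3 CPM in the lowest hCG library, 49.98 at the median and 88.7 in the highest, against 26.4, 69.6 and 91.2 CPM in Ctrl. The lowest of all 12 libraries was Ctrl 1 and the highest was Ctrl 6. The log2 fold change was -0.18 ± 0.31 (interval -0.80 to 0.43), with an adjusted p of 0.760 in edgeR.

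The myelin genes varied together from library to library. Between the lowest and the highest library of a group, Mbp differed 2.13 times in hCG and 2.38 times in Ctrl, and Mobp 2.32 times in hCG and 3.46 times in Ctrl. Libraries hCG 2, Ctrl 2, Ctrl 3, Ctrl 4 and Ctrl 6 took ranks 8 to 12 of the 12 libraries for all 5 myelin genes. At the low end were hCG 4 and hCG 6, in ranks 1 to 3 for all 5 genes. Ctrl 1 took ranks 1 to 3 for Mbp, Mog, Mag and Mobp but rank 7 for Opalin. The precursor genes spread less, with 1.2 times between the lowest and highest sum of the 4 genes in hCG (100 to 121 CPM) and 1.34 times in Ctrl (72.6 to 97.7 CPM). The sum of the 5 myelin genes spanned 760 to 1625 CPM in hCG and 791 to 1902 CPM in Ctrl.

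**Figure D3:**
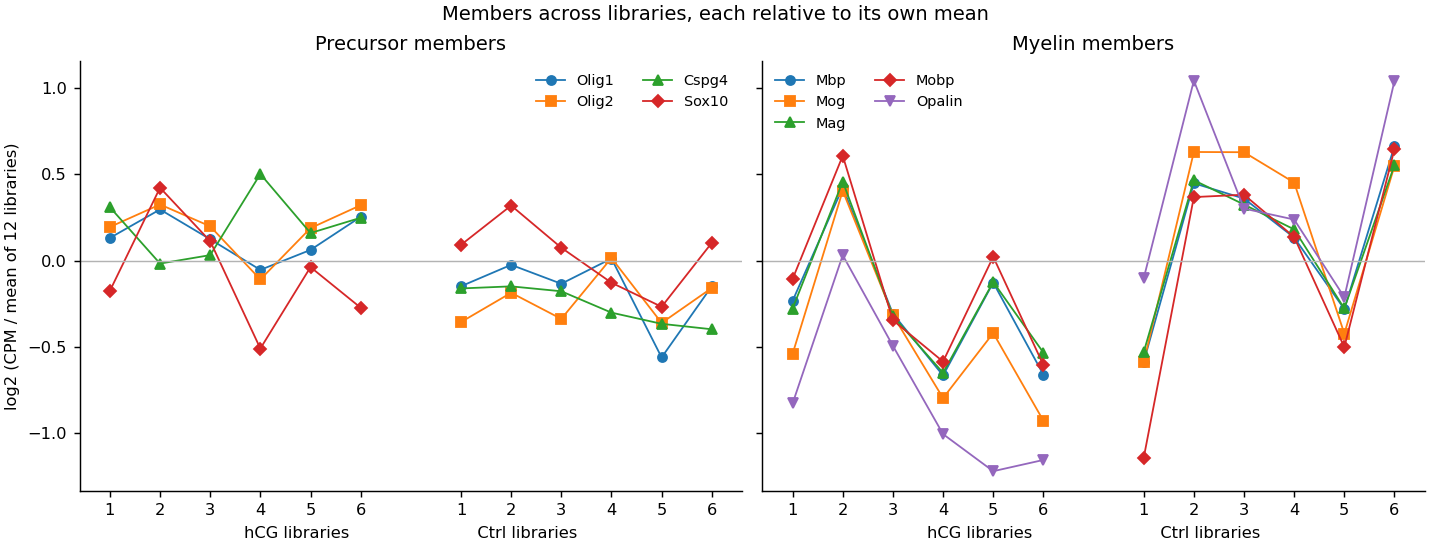
Log2 of each gene's CPM relative to its mean over the 12 libraries, for the 4 precursor genes (left) and the 5 myelin genes (right), by library; lines join the libraries for reading only. Mbp, Mog, Mag and Mobp follow one another closely in both groups, Opalin sits below them in the hCG libraries, and the precursor lines stay nearer to 0.

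With the group means removed, each of Mbp, Mog, Mag and Mobp correlated with the myelin genes' mean profile at Pearson r of 0.97 to 0.99 over the 12 libraries, and Opalin at 0.88. Among the genes outside the 9 whose profile was most like it were Cnp (r = 0.97), Prr18 (0.97), Tmem88b (0.96) and Tspan2 (0.96). Cnp encodes a myelin phosphodiesterase. The same measure gave no such tight group for the precursor genes. Olig1 correlated with their mean profile at 0.97, Olig2 at 0.72, Sox10 at 0.64 and Cspg4 at -0.14. Among the nearest other genes were Pgm2 and Abat (both 0.91), Glud1 (0.90) and Col11a1 (0.89). These values describe the same 12 libraries, which share their depth and tissue makeup, and each gene contributes to its own group's profile.

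Opalin was also lower in hCG relative to Mag. The choice of Mag as the denominator was made after the values were seen. Per 100 Mag reads, there were 4.15 to 7.88 Opalin reads in hCG (median 6.33) and 8.73 to 13.2 in Ctrl (median 10.6). The groups did not overlap. Of the 13873 genes tested other than Mag, 3 (0.0216%) lay lower in all hCG than in all Ctrl libraries per Mag read. They were Opalin, Rbm3 and Rad51ap2. Between its lowest and highest library, Mag itself differed 2.16 times in hCG and 2.12 times in Ctrl. Division by Mag spreads the values of any gene that does not vary with it. Few genes could therefore separate the groups, and this share does not measure how rare the result is. Rbm3 encodes a cold-inducible RNA-binding protein. Per 100 Mog reads, Opalin gave 15.5 to 23.8 reads in hCG and 21.5 to 37.9 in Ctrl, with overlap. Mbp kept a near-constant ratio to Mag, with 2326 to 2622 Mbp reads per 100 Mag reads in hCG and 2444 to 2744 in Ctrl.

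**Figure D4:**
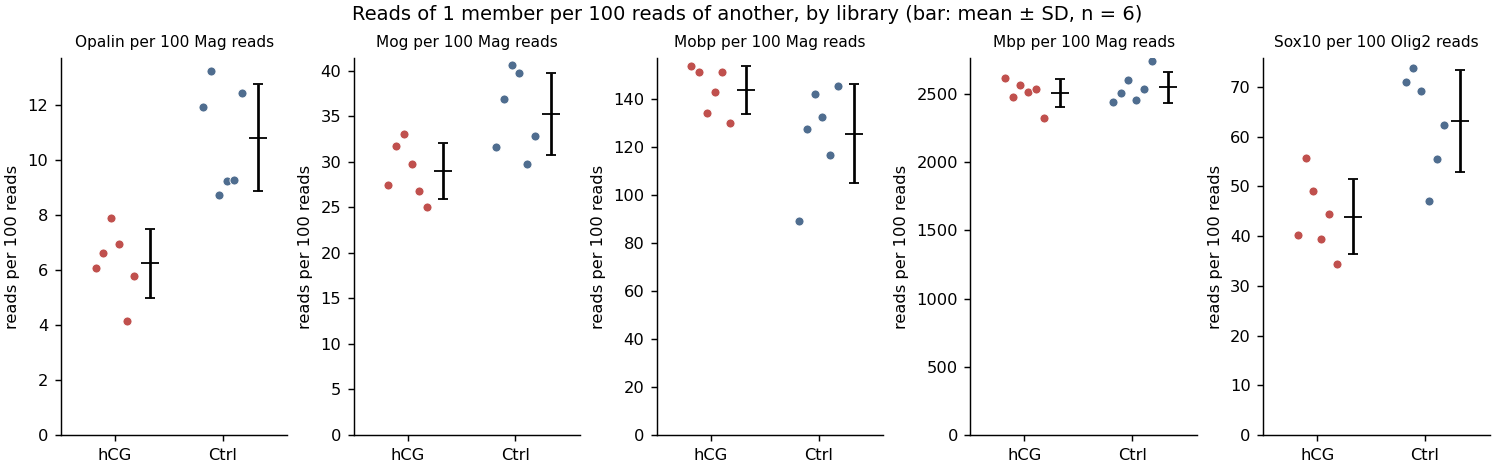
Reads of one gene per 100 reads of another in each of the 6 hCG and 6 Ctrl libraries, with axes from 0 and bars for the mean ± SD. Opalin per 100 Mag reads separates the groups (4.15 to 7.88 in hCG, 8.73 to 13.2 in Ctrl), whereas Mbp per 100 Mag reads overlaps.

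Among 25 other genes of myelin and oligodendrocyte structure, 23 were tested, none was called higher and 1 was called lower, with a median log2 fold change of -0.14. A count of 1 in 23 is near the 3.19% of all genes tested that were called lower. The called gene was Pllp, which encodes plasmolipin, a tetraspan protein of myelin membranes. Pllp measured 11.6 CPM in the lowest hCG library, 14.8 at the median and 17.7 in the highest, against 16.7, 21.6 and 24.8 CPM in Ctrl. Of the 6 hCG libraries, 5 lay below all Ctrl libraries. Its log2 fold change was -0.50 ± 0.11 (adjusted p = 0.0108 in edgeR), and it passed the test in each of the 12 fits without 1 library. Cnp differed by -0.39 ± 0.17 (adjusted p = 0.183 in edgeR).

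Enzymes of myelin lipid synthesis and the lineage's other transcription factors gave no calls in edgeR. Over all genes tested, 7.86% were called, so lists this short would hold few calls. Of 10 lipid enzymes, none passed edgeR's test (0 at an unadjusted p of 0.05, and 0 by DESeq2 or limma-voom), with a median log2 fold change of -0.05. The most abundant were Hsd17b12, of fatty acid elongation, at -0.03 ± 0.07, and Sgms1, a sphingomyelin synthase, at 0.02 ± 0.09. Of 18 transcription factors and co-regulators, 17 were tested and none passed, with a median of 0.01, and Olig3 was at 0 in all 12 libraries. At an unadjusted p of 0.05, 2 of the 17 were higher and 1 lower, and DESeq2 called 1 lower, Id4, and limma-voom 0. The most abundant were Zeb2, a repressor that promotes oligodendrocyte maturation, at 0.13 ± 0.06 (adjusted p = 0.213 in edgeR) and Carm1, an arginine methyltransferase, at 0.01 ± 0.06. Myrf, the activator of myelin genes in differentiating oligodendrocytes, was named after its value was seen and differed by 0.03 ± 0.25.

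Of 22 growth factors and receptors of the lineage, 20 were tested, 1 was called higher and 1 lower, with a median log2 fold change of -0.02. Counts this small are near the shares over all genes tested, 4.67% called higher and 3.19% lower. Pdgfa, which encodes the mitogen of precursors, measured 8.54 CPM in the lowest hCG library, 10.1 at the median and 12.1 in the highest, against 11.9, 13.1 and 14.4 CPM in Ctrl. Only hCG 2 reached into the Ctrl range. The log2 fold change of Pdgfa was -0.36 ± 0.10 (adjusted p = 0.0306 in edgeR), and it passed in 6 of the 12 fits without 1 library, with adjusted p in edgeR up to 0.0741. Igf1r, the receptor for insulin-like growth factor 1, was higher by 0.22 ± 0.06 (adjusted p = 0.0449 in edgeR) and passed in 2 of those 12 fits.

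Of 15 axonal and paranodal partners of myelin, 3 were called higher and 1 lower in edgeR, with a median log2 fold change of -0.14. Over all genes tested, 4.67% were called higher and 3.19% lower. The balance of calls depended on the tool. DESeq2 called 3 higher and 4 lower, limma-voom 3 higher and 2 lower, and at an unadjusted p of 0.05 in edgeR 3 were higher and 6 lower. Without 1 library at a time, edgeR called 3 higher and 1 to 3 lower. Nfasc, which encodes the adhesion protein neurofascin, measured 245 CPM in the lowest hCG library, 269 at the median and 280 in the highest, against 195, 217 and 227 CPM in Ctrl. Ank3, which encodes ankyrin-G, measured 261, 264 and 283 CPM in hCG against 216, 220 and 247 CPM in Ctrl. All 6 hCG libraries lay above all 6 Ctrl libraries for both genes. Sptbn4, which encodes beta-IV spectrin, also separated the groups, with 263 to 332 CPM in hCG and 205 to 239 CPM in Ctrl. Over all genes tested, 2.38% separated the groups in that direction. The log2 fold changes were 0.34 ± 0.06 for Nfasc, 0.28 ± 0.05 for Ank3 and 0.41 ± 0.07 for Sptbn4, with adjusted p of 0.00196, 0.00281 and 0.00196 in edgeR. The gene called lower was Cntn1, which encodes contactin-1 of the paranodal junction, with 371 to 419 CPM in hCG and 445 to 509 CPM in Ctrl. Its log2 fold change was -0.24 ± 0.05 (adjusted p = 0.0113 in edgeR), and all hCG libraries lay below all Ctrl libraries, as did 2.12% of the genes tested. DESeq2 also called Cntnap1, Nrcam and Rtn4 lower, named here after their values were seen, with log2 fold changes of -0.18 ± 0.05, -0.14 ± 0.05 and -0.25 ± 0.09 and adjusted p of 0.0513, 0.0892 and 0.0864 in edgeR. Neurons express Nfasc, Ank3, Sptbn4 and Cntn1, and Nfasc is also made by oligodendrocytes.

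Markers of other cells moved to different extents. Their calls stand beside 4.67% called higher and 3.19% called lower over all genes tested. Of 12 astrocyte markers none was called in edgeR (3 higher and 1 lower at an unadjusted p of 0.05; DESeq2 called 1 lower, Gja1, and limma-voom 0), with Slc1a2, the main glutamate transporter, at -0.15 ± 0.07 (adjusted p = 0.239 in edgeR). Of 10 microglial markers 3 were called higher, Tmem119, C1qb and C1qa, with log2 fold changes of 0.31 ± 0.08, 0.34 ± 0.09 and 0.29 ± 0.08 (adjusted p from 0.0353 to 0.0406 in edgeR). These calls were near the threshold. Without 1 library at a time, 0 to 3 microglial markers were called, with Tmem119 passing in 4, C1qb in 2 and C1qa in 3 of 12 fits. None of the 3 passed with library totals, without a low-count filter or without hCG 4 and hCG 6 together. The microglial sum was 413 to 503 CPM in hCG and 354 to 448 CPM in Ctrl. Of 10 granule neuron markers 2 were called higher in edgeR and limma-voom, Prox1 at 0.36 ± 0.09 and Plk5 at 0.50 ± 0.13. DESeq2 also called Calb1 higher (0.31 ± 0.11, adjusted p = 0.0854 in edgeR). The granule neuron list's sum was 1940 to 2410 CPM in hCG and 1347 to 2248 CPM in Ctrl. Prox1 and Plk5 each passed in 4 of the 12 fits without 1 library, in which 0 to 3 granule neuron markers were called. Without hCG 4 and hCG 6 together, neither passed (adjusted p of 0.140 for Prox1 and 0.137 for Plk5 in edgeR). Of 12 markers of other hippocampal neurons only Gad1, the GABA-synthesising enzyme, was called in edgeR and limma-voom, at 0.19 ± 0.05 in edgeR. Gad1 passed in 5 of the 12 fits without 1 library. DESeq2 also called Fibcd1 higher (0.80 ± 0.23, adjusted p = 0.0521 in edgeR). Of 8 endothelial markers only Ly6c1 was called in edgeR and limma-voom, at 0.84 ± 0.16 in edgeR. DESeq2 also called Cldn5 higher (0.65 ± 0.22, adjusted p = 0.0936 in edgeR). Calb1, Fibcd1 and Cldn5 were named after their values were seen. All 8 endothelial markers had log2 fold changes above 0, with a median of 0.48. That direction was not particular to endothelium. Above 0 were also 9 of 10 microglial (median 0.12), 9 of 10 granule neuron (0.28) and 8 of 9 pericyte and smooth muscle markers (0.23). So were 7 of the 8 choroid plexus, ependymal and meningeal markers tested (median 2.89), whose sum was by far the highest in hCG 6. In contrast, 6 of 12 astrocyte markers, 3 of 12 markers of other hippocampal neurons and 1 of 4 blood cell markers were above 0. The endothelial sum was 129 to 278 CPM in hCG and 119 to 176 CPM in Ctrl. Of 4 blood cell markers none was called by edgeR, DESeq2 or limma-voom, or at an unadjusted p of 0.05 in edgeR (0). The 8 markers tested of choroid plexus, ependyma and meninges gave no call by any of the 3 tools, with 5 higher in hCG at an unadjusted p of 0.05 in edgeR, and the 1 Schwann cell marker tested, Prx, gave none (-0.05 ± 0.22). Ttr, the most abundant of the choroid plexus markers, reached 8917 CPM in hCG 6 and at most 72.9 CPM in Ctrl. No marker on these lists was at 0 in all libraries. Their part in the results on the precursor and myelin genes was not tested.

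The table lists 18 RefSeq transcripts for the 9 genes. Only Mbp (8 transcripts) and Mobp (3) have more than 1, so for the other 7 genes the transcript repeats the gene's count, tested in a fit over transcripts in place of genes. Of the 17 transcripts tested, 2 passed an adjusted p of 0.05 in edgeR, those of Cspg4 (0.0195) and Olig2 (0.0328), and 3.26% of all 18625 transcripts tested did (2.02% higher and 1.24% lower in hCG). The transcript of Opalin had an adjusted p of 0.0524 and that of Olig1 0.0829. Without 1 library at a time, the Cspg4 transcript passed in 11 of 12 fits (adjusted p in edgeR up to 0.0528). That of Olig2 passed in 2 of 12 (up to 0.0783). Each passed in 1 of 2 other settings run on transcripts, with adjusted p in edgeR up to 0.109 for Cspg4 and 0.143 for Olig2.

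No transcript of Mbp or Mobp passed the test, and none had an unadjusted p under 0.05 in edgeR. The reads of Mbp were divided by the upstream estimate among transcripts that behaved differently between libraries. NM_001025259, the largest, held 57.5% ± 4.47 of the Mbp reads in hCG and 62.2% ± 4.0 in Ctrl (SD, n = 6 each). It measured 356 CPM in the lowest hCG library, 523 at the median and 920 in the highest, against 411, 822 and 1143 CPM in Ctrl, a log2 fold change of -0.49 ± 0.28. NM_001025245 stayed almost level, with 106 CPM in the lowest hCG library, 126 at the median and 131 in the highest, against 115, 127 and 155 CPM in Ctrl. Its coefficient of variation over the 12 libraries was 10.1%, against 39.7% for NM_001025259, and its log2 fold change was -0.08 ± 0.08. Its highest value was in Ctrl 5 and its lowest in hCG 2, so it did not follow the ranks of the myelin genes. It held 14.0% ± 4.39 of the Mbp reads in hCG and 11.7% ± 4.87 in Ctrl. The Mbp gene is known to have an upstream start that gives the longer Golli transcripts, which are made outside oligodendrocytes too. The sources used here do not say which of the listed IDs are of that kind.

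For Mobp, NM_008614 held 76.0% ± 1.97 of the reads in hCG and 80.3% ± 1.92 in Ctrl. NM_001039365 held 23% ± 2.35 in hCG and 19.1% ± 1.87 in Ctrl. Its share ranged from 20.5% to 26.7% in hCG and from 16% to 21.7% in Ctrl, so the groups overlapped. These shares were not tested.

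**Figure D5:**
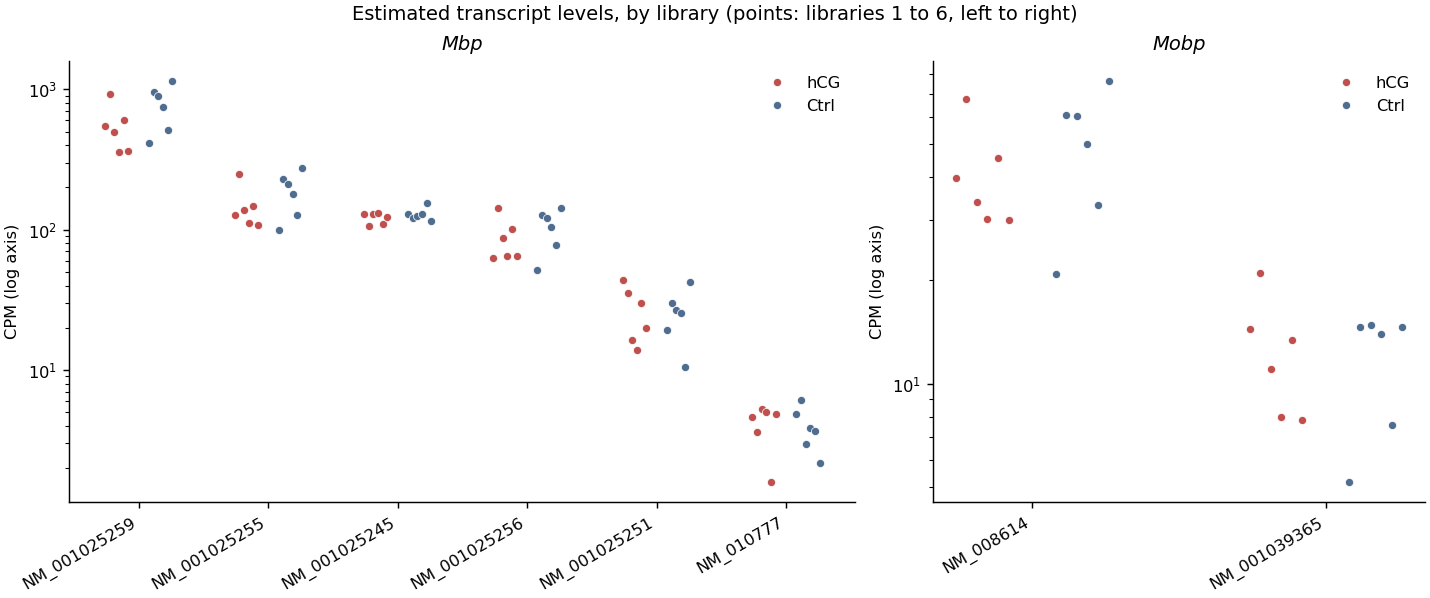
Estimated CPM (log axis) of the listed Mbp and Mobp transcripts in the 6 hCG and 6 Ctrl libraries; of Mbp, 2 transcripts that reached 0 in some libraries are not drawn, and of Mobp 1. NM_001025245 forms a narrow band in both groups (106 to 155 CPM), whereas NM_001025259 spans 356 to 1143 CPM.

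The 9 genes were also looked up in the oocytes and blastocysts of the same series, which hold no oligodendrocytes. These tables were normalized separately from the dDG table, so levels are not compared with it, and no comparison of hCG with Ctrl was made. The oocyte table listed 6 of the 9 genes, and Sox10, Mag and Mobp were not analysed there. In metaphase II oocytes (6 libraries per group, 2379861 to 6924189 counts each), Mbp was found in all libraries, at 1.59 to 8.38 CPM in hCG and 1.43 to 9.10 CPM in Ctrl. Opalin was also found in all 12, at 2.90 to 9.30 CPM in hCG and 5.04 to 10.1 CPM in Ctrl. Olig2 had 0 counts in both groups, which allows a level of up to 0.104 CPM over the hCG libraries and 0.112 CPM over the Ctrl libraries (3 counts of the total, for counting error only). Olig1, Cspg4 and Mog had 1 to 3 counts in a single library each.

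The labels of the blastocyst libraries give the same embryonic day for all libraries of both groups. In blastocysts (28 libraries per group), Mbp was above 0 in every library, at 13.4 to 44.4 CPM in hCG and 12.3 to 73.3 CPM in Ctrl. Olig2 and Sox10 were listed at 0 in all of them. Mog was above 0 in 10 hCG and 12 Ctrl libraries, Mag in 12 hCG and 7 Ctrl libraries, and Mobp in 4 hCG and 2 Ctrl libraries. Opalin and Olig1 were above 0 in 1 hCG library each and in no Ctrl library, and Cspg4 in 1 library of each group. Of the 9 genes, Mbp was thus the one detected in every library of all 3 tissues.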

How the data were processed

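The authors deposited, for the dDG, expected counts (estimated counts with decimals) per RefSeq transcript. For oocytes they deposited whole-number counts per gene, and for blastocysts a signal whose scale differs from library to library, for a reason the sources used here do not give. The submitters' processing notes name Trim Galore, Trimmomatic, STAR, TopHat, Bowtie2 and HTSeq with the builds mm10 and GRCm38, but which tool made which table, and whether strand was used, is not given in the sources used here. Reads were thus divided between transcripts by an unnamed estimate. dDG expected counts were summed per gene, rounded and scaled to the library total (CPM). Genes and transcripts that passed the filterByExpr defaults of edgeR 4.0.16 (minimum count 10, minimum total 15) were tested over the whole table in R 4.3.3 with its robust quasi-likelihood F test after TMM normalization, hCG against Ctrl, 6 libraries each, no covariate, two-sided, with Benjamini-Hochberg adjustment at 0.05. SE is the log2 fold change over the root of F, and intervals span 2 SE. The pipeline was tested on simulated data. Oocyte and blastocyst values were scaled to the column total and described only.

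The 9 genes and the lists beside them were chosen with earlier results of these data known. Named from each lineage list were all genes called (up to 4), or the 2 most abundant where none was, and from each list of another cell type the called genes (up to 3) and the most abundant. The 5 genes most like each profile were named by Pearson r over 12 libraries of log2 CPM (prior count 2), group means removed; some of these genes are not reported here. Further names are marked as chosen after their values were seen. Alternatives were DESeq2 1.42.0, limma 3.58.1 (voom), library totals, no filter, a replicate block and leaving out libraries. Promoters were RefSeq sequences on GRCm38.p6. The bisulfite libraries were not analysed here.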

Additional observations from a re-analysis of the deposited data

Results flagged for a closer look

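In 4 of 36 groups of 6 dDG libraries, the lowest or highest library lay farther from the others than Dixon's 95% critical value allows. Chance gives about 1 in 20 for a single group. The 36 groups were not independent, because the myelin genes varied together and transcripts share reads with their gene. The count of 4 therefore does not measure an excess. Olig1 in Ctrl 5 was low at 38.5 CPM. Olig2 in hCG 4 was low at 16.7 CPM. Mog in hCG 2 was high at 18.6 CPM, and so was the Mbp transcript NM_001025255 in hCG 2 at 247 CPM.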

How the results depend on the processing

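No called result changed sign under the alternatives run. DESeq2 called 722 genes lower in hCG, against 443 by edgeR. The labels do not say whether the replicate numbers pair the samples. The correlation of deviations of same-numbered libraries ran from -0.149 to 0.176, over 0.1 in 1 of 6 pairs. The median over the other pairs was -0.0302. So few pairs cannot decide whether the samples are paired. With a replicate block, 388 genes were called higher and 195 lower, 1 precursor gene was called, Olig1 stood at 0.32 (adjusted p = 0.0597 in edgeR) and Olig2 at 0.43 (0.0503), and 75 transcripts were called higher and 24 lower. Without a low-count filter, 240 transcripts were called higher and 148 lower. Without hCG 4 and hCG 6 together, an alternative added after seeing the data, 357 genes were called higher and 189 lower, no myelin gene was called (0), Olig1 stood at 0.34 (adjusted p = 0.0527 in edgeR) and Opalin at -1.001 (0.0856).

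Leaving out 1 library at a time gave 395 to 684 genes higher and 254 to 547 lower, and 148 to 400 transcripts higher and 79 to 281 lower. Counts of genes moved over 1.5 times without Ctrl 2 (404 higher, 277 lower), Ctrl 3 (416 and 266), Ctrl 6 (395 and 254) or hCG 4 (287 lower). Precursor genes called ran from 2 to 3 and myelin genes from 1 to 2. Log2 fold changes ran from 0.24 to 0.35 for Olig1 and from -0.85 to -0.55 for Mog.

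The labels name no batch, so none was checked. Opalin rests on the fewest counts of the 9 genes, 28 to 135 per library, which limits its precision. Calls near the threshold, such as Olig1, Igf1r and the microglial and granule neuron markers, depend on single libraries. Transcript values rest on an upstream estimate.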
